A study of Mus musculus with 12 samples.

Results

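Fibroblasts of the synovial membrane fall into a lining layer, which faces the joint cavity and secretes lubricin and hyaluronan, and a sublining, which holds vessels, adventitia and loose collagen matrix. Sublining cells next to vessels respond to Notch ligands of the endothelium, and fibroblasts of an inflamed joint are known to make cytokines and matrix proteins. A set of 36 genes that mark these fibroblast states was followed here, out of 46603 genes in the count table. The genes were taken by symbol through their Ensembl identifiers, and all 36 were found. They were ordered by role into 7 lining and joint genes, 7 general fibroblast genes, 12 sublining and adventitia genes, 5 perivascular and Notch genes and 5 genes of matrix activation.

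The data were bulk RNA-seq of 12 mouse libraries, 3 biological replicates in each of 4 groups: ileum of TNFdARE mice, ileum of WT littermates, synovium of the ankle of TNFdARE mice and synovium of the ankle of WT littermates. TNFdARE mice lack the AU-rich element of the Tnf message in all cells, so the message is decayed and silenced less, and they are used as a model of inflammation of the joints and the terminal ileum. Neither age nor sex was given in the labels, no treatment is listed for any group, and nothing ties a library of ileum to a library of synovium by animal. The p-values therefore measure the spread between these libraries. The levels below are in CPM, a gene's count scaled to a fixed library total with TMM factors over all 12 libraries, and values of a group are listed in the order of replicates 1, 2 and 3.

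Library totals lay between 14267834 and 16224402 counts. Tnf itself measured 38.5, 32.6 and 28.3 CPM in TNFdARE and 2.15, 2.02 and 1.89 CPM in WT synovium, and 82.8, 17.2 and 47.4 CPM in TNFdARE and 2.63, 1.39 and 1.62 CPM in WT ileum, so each label was matched by its transcript. Libraries of a group differed by more than counting noise, with a mean chi-square per gene of 11.2 to 92.9. Xist exceeded 5 CPM in 4 libraries, the replicate 3 of each group, so each group held 1 library with the female transcript. As a check of the tissue, the lining markers Prg4, Cd55 and Col22a1 summed to 13610 to 15740 CPM in WT synovium and to 60.6 to 70.6 CPM in WT ileum. Skeletal muscle markers were also present in WT synovium, at a sum of 9222 to 17470 CPM, and cartilage and bone markers summed to 2623 to 3587 and 1889 to 2732 CPM, so the dissected tissue held more than synovial membrane.

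The promoter sequences of 4 members are shown because these genes moved in opposite directions: the lining genes Clic5 and Serpinb7 fell in TNFdARE synovium, and Pdpn and Postn were the members that rose most. Each window holds the 250 bases before a RefSeq transcript start on GRCm38.p6, written 5′ to 3′ on the gene's strand, with matches to 4 searched motifs in capitals.
Clic5, chr17:44188322-44188571, plus strand: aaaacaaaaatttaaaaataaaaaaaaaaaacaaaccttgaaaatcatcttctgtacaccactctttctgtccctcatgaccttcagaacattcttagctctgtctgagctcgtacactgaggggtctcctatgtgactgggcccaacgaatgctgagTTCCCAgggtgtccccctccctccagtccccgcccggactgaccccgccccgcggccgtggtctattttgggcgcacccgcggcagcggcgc
Serpinb7, chr1:107422439-107422688, plus strand: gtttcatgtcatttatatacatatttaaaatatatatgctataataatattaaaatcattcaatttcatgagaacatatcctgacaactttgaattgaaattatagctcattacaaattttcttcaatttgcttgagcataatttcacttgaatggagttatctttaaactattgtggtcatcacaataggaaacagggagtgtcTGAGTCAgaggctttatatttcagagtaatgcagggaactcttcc
Pdpn, chr4:143299565-143299814, minus strand: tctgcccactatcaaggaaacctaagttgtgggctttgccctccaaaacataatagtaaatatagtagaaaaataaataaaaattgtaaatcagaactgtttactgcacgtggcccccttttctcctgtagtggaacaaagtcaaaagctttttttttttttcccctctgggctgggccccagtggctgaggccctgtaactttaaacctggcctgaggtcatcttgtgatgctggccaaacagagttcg
Postn, chr3:54360857-54361106, plus strand: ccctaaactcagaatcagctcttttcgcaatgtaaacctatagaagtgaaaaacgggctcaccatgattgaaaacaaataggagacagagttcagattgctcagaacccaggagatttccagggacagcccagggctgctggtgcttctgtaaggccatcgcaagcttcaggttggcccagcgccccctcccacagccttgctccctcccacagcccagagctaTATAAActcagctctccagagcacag
The windows of Clic5, Pdpn and Postn lay outside the annotated spans of their genes, directly upstream of chr17:44188584-44280172, chr4:143267431-143299564 and chr3:54361109-54391037. The Serpinb7 window lay inside the annotated span of that gene, chr1:107399655-107452689. In Clic5 the capitals mark the RBPJ motif TGGGAA, read on the other strand 92 to 87 bases before the start. RBPJ is the DNA-binding partner of the Notch receptors. The capitals of Serpinb7 mark the AP-1 motif TGANTCA, 45 to 39 bases before the start, and those of Postn mark TATAAA, 26 to 21 bases before the start. No match to the 4 motifs was found in the Pdpn window. Postn has a further RefSeq window, chr3:54359017-54359266, which is not printed and also held no match.

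The motifs were searched over the RefSeq windows that matched a member, 23 windows of 20 members. AP-1 was found in 2 of 23 member windows, those of Serpinb7 and Tspan15, against 6.75% of 32851 windows of all genes. The NF-kB consensus was found in 2 of 23, those of Fbln1 and Igfbp5, against 7.25%. RBPJ was found in 7 of 23 against 21.6%, and TATAAA in 4 of 23 against 7.59%. Tnc holds 2 of the windows in each of those counts, since its 2 windows overlap. The first 3 motifs were searched on both strands and TATAAA on the gene's own strand. The AP-1 motif is its own reverse complement, and an RBPJ match can overlap an NF-kB match, although none did in these windows.

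In synovium, 21 of the 36 members passed the test between TNFdARE and WT, 8 higher and 13 lower. This was 58.3% of the members, beside 23.8% of all 15599 genes tested (13.1% higher and 10.7% lower). The median log2 fold change of the members was -0.27, beside 0.003 for all genes. Levels of the 3 TNFdARE and the 3 WT libraries did not overlap for 8 members that were higher and 15 that were lower, 63.9% of members, beside 43.9% of all genes (20.7% higher and 23.2% lower). The change was at least 2-fold for 13 called members, 6 higher and 7 lower. Summed over all 36 genes the groups overlapped, at 24570 to 31110 CPM in TNFdARE and 26200 to 30100 CPM in WT. Fn1 alone held 11050 to 14350 CPM of this sum in TNFdARE and 10470 to 14360 CPM in WT. The sum therefore mostly follows a few abundant genes and does not measure fibroblast content. In bulk tissue, fewer cells of a type and less RNA per cell cannot be told apart.

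**Figure D1:**
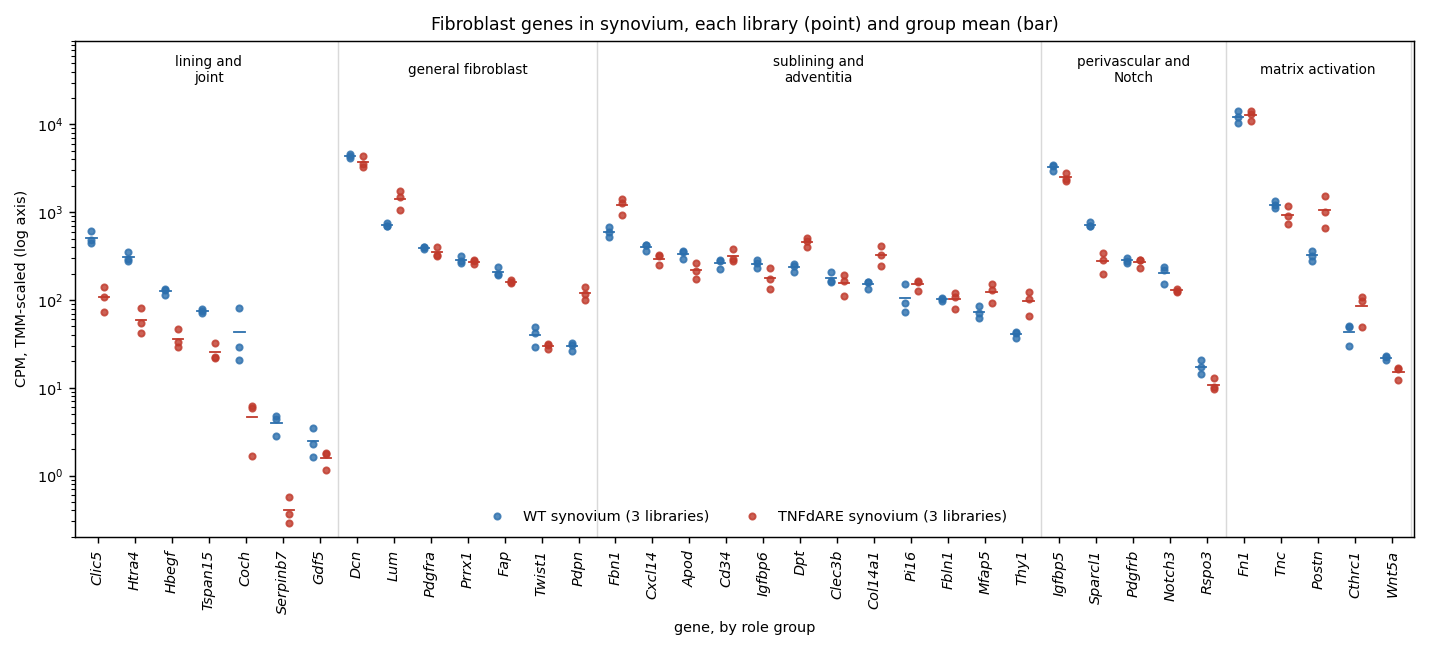
Levels of the 36 genes in synovium, as TMM-scaled CPM on a log axis, with 1 point per library and a bar at the group mean of 3 libraries, ordered by role group. The lining genes Clic5, Htra4, Hbegf, Tspan15, Coch and Serpinb7 lie lower in all TNFdARE libraries than in any WT library, while Pdpn, Lum, Fbn1, Dpt, Col14a1, Mfap5, Thy1 and Postn lie higher.

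Lining and joint genes fell in TNFdARE synovium. Of the 7 genes, 6 were lower, none was higher and 1 did not pass the test, and the group's median log2 fold change was -2.23. The role groups were drawn up with earlier results of these data known, so this shared direction is a description and not a test. Pdpn (2.03) and Fn1 (0.10), which did not fall, were placed in other role groups. Clic5, a chloride intracellular channel protein linked to the actin cortex, measured 109, 139.5 and 73.4 CPM in TNFdARE and 610.5, 449 and 481 CPM in WT. All 3 TNFdARE libraries were far below the lowest WT library, and Clic5 fell 4.69-fold (log2 fold change -2.23 ± 0.25 (SE), adjusted p = 0.00253). Htra4, a secreted serine protease of the HtrA family, measured 42.6, 80.7 and 54.4 CPM in TNFdARE and 279, 297 and 353 CPM in WT. It fell 5.12-fold with no overlap (log2 fold change -2.36 ± 0.25 (SE), adjusted p = 0.00233). Hbegf, a membrane-anchored ligand of the EGF receptor, measured 29.1, 47.2 and 32.9 CPM in TNFdARE and 129, 113 and 135 CPM in WT. The WT libraries were again all higher, and the fall was 3.38-fold (log2 fold change -1.76 ± 0.19 (SE), adjusted p = 0.00201).

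Tspan15, a tetraspanin that escorts the protease ADAM10, measured 22.7, 32.7 and 21.8 CPM in TNFdARE and 75.1, 71.5 and 79.3 CPM in WT. It was lower in each TNFdARE library, 2.86-fold on average (log2 fold change -1.52 ± 0.16 (SE), adjusted p = 0.0015). Serpinb7, an intracellular serine protease inhibitor, was the rarest of the lining genes that fell, at 0.36, 0.577 and 0.29 CPM in TNFdARE and 4.37, 2.8 and 4.77 CPM in WT. The TNFdARE libraries held 6, 10 and 5 counts of it and the WT libraries 63, 43 and 73, and the fitted fall was 9.37-fold (log2 fold change -3.23 ± 0.37 (SE), adjusted p = 0.0018). Coch encodes cochlin, a secreted matrix protein, and measured 5.94, 6.23 and 1.68 CPM in TNFdARE and 80.3, 20.7 and 28.8 CPM in WT. WT replicate 1 stood well above the other WT libraries, and the fall of 9.16-fold had a wide error (log2 fold change -3.20 ± 0.72 (SE), adjusted p = 0.0295). The Coch call was lost without any 1 of TNFdARE replicates 1, 2 and 3 or WT replicate 3 (adjusted p between 0.0654 and 0.0931, log2 fold change between -3.48 and -2.80), and also with no filter on low counts and with limma-voom. Gdf5, a growth factor of joint formation, ranged from 1.153 to 1.799 CPM in TNFdARE and 1.63 to 3.47 CPM in WT, and did not pass (log2 fold change -0.62 ± 0.35 (SE), adjusted p = 0.238).

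The 3 lining markers outside the set moved the same way: Prg4 at -1.87 ± 0.13 (adjusted p = 0.000419), Cd55 at -0.69 ± 0.13 (adjusted p = 0.0116) and Col22a1 at -1.05 ± 0.20 (adjusted p = 0.0126) all fell. Prg4 encodes lubricin, and it measured 3665, 4052 and 3410 CPM in TNFdARE and 13370, 12930 and 15150 CPM in WT. The summed level of these markers was 3667 to 4462 CPM in TNFdARE and 13610 to 15740 CPM in WT, and the summed level of the 7 lining members was 186 to 308 CPM beside 956 to 1182 CPM.

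General fibroblast genes did not move as a block. Of 7 genes, 2 rose, 1 fell and 4 did not pass, with a median log2 fold change of -0.14. Pdpn encodes podoplanin, a membrane glycoprotein of activated fibroblasts and of lymphatic vessels, and measured 139.7, 100.5 and 117 CPM in TNFdARE and 30.4, 26.6 and 32.5 CPM in WT. Every TNFdARE library was above any WT library, and Pdpn rose 4.07-fold (log2 fold change 2.03 ± 0.13 (SE), adjusted p = 0.000374), the member with the smallest p. Lum encodes lumican, a small leucine-rich proteoglycan of collagen fibrils, and measured 1731, 1067 and 1495 CPM in TNFdARE and 695, 745 and 688 CPM in WT. It rose 2.06-fold without overlap (log2 fold change 1.04 ± 0.17 (SE), adjusted p = 0.00605).

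Dcn encodes decorin, the close relative of lumican, and was the most abundant gene of this group, at 4387, 3578 and 3264 CPM in TNFdARE and 4641, 4178 and 4400 CPM in WT. Its groups overlapped and it did not pass (log2 fold change -0.21 ± 0.13 (SE), adjusted p = 0.294, 95% interval -0.52 to 0.10). Fap, the fibroblast activation protein, a cell-surface protease, measured 168, 156 and 161 CPM in TNFdARE and 190.5, 238 and 196 CPM in WT. The fall was small (log2 fold change -0.33 ± 0.10 (SE), adjusted p = 0.0469), and it was lost without any 1 library other than WT replicate 1 (adjusted p between 0.0798 and 0.125), with library size only and with all 12 libraries in 1 fit. Pdgfra, the PDGF receptor found on most fibroblasts, and the mesenchymal transcription factors Prrx1 and Twist1 did not pass. Their log2 fold changes were -0.14 ± 0.10, -0.05 ± 0.09 and -0.38 ± 0.19 (SE), with ranges of 321 to 406, 254 to 286 and 27.5 to 31.8 CPM in TNFdARE that overlapped those of WT.

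More sublining and adventitia genes rose than fell. Of 12 genes, 5 rose, 2 fell and 5 did not pass, with a median log2 fold change of 0.41. Thy1, the surface glycoprotein that separates sublining from lining fibroblasts, measured 122, 66.5 and 104 CPM in TNFdARE and 42.1, 36.6 and 43.8 CPM in WT. It rose 2.43-fold, with TNFdARE replicate 2 the lowest of its group but above all WT libraries (log2 fold change 1.28 ± 0.22 (SE), adjusted p = 0.00989). Col14a1, a collagen that sits on the surface of fibrils, measured 412, 244 and 328 CPM in TNFdARE and 135, 159 and 162 CPM in WT. It rose 2.2-fold (log2 fold change 1.14 ± 0.19 (SE), adjusted p = 0.00779), again with the smallest gain in TNFdARE replicate 2. Fbn1 encodes fibrillin-1, the backbone of microfibrils, and had the highest CPM of the group before scaling by length, at 1288, 919 and 1432 CPM in TNFdARE and 592, 519 and 682 CPM in WT. It rose 2.07-fold (log2 fold change 1.05 ± 0.18 (SE), adjusted p = 0.00792).

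Dpt encodes dermatopontin, a small protein that binds decorin and collagen, and measured 512, 399.8 and 470.3 CPM in TNFdARE and 241, 210 and 259 CPM in WT. Its groups were well apart and it rose 1.98-fold (log2 fold change 0.99 ± 0.12 (SE), adjusted p = 0.00216). Mfap5, a microfibril protein that binds fibrillin, measured 151, 92.8 and 129 CPM in TNFdARE and 71.9, 62.7 and 86.1 CPM in WT. The groups did not overlap, but the lowest TNFdARE library and the highest WT library were close (log2 fold change 0.78 ± 0.20 (SE), adjusted p = 0.0346). The Mfap5 call was lost without any 1 of TNFdARE replicates 1 and 3 or WT replicates 1 and 2 (adjusted p between 0.0765 and 0.0996), and also with no filter on low counts, with limma on log2(FPKM + 1) and with all 12 libraries in 1 fit.

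The genes that fell in this group were Apod and Cxcl14. Apod, a lipid carrier of the lipocalin family, measured 267, 216 and 174 CPM in TNFdARE and 359, 296 and 350 CPM in WT, and fell 1.5-fold (log2 fold change -0.59 ± 0.16 (SE), adjusted p = 0.0356). Its call was lost without TNFdARE replicate 2 or 3 or WT replicate 1 or 3 (adjusted p between 0.0781 and 0.108), and with all 12 libraries in 1 fit. Cxcl14, a chemokine made by resting fibroblasts and epithelia, measured 254, 314 and 322 CPM in TNFdARE and 421, 421 and 364 CPM in WT. It fell 1.33-fold (log2 fold change -0.41 ± 0.12 (SE), adjusted p = 0.0432), and leaving out any 1 of the 6 libraries ended the call (adjusted p between 0.0614 and 0.107), as did scaling by library size only. Igfbp6, a binding protein with a preference for IGF-II, measured 229.5, 175 and 134 CPM in TNFdARE and 289, 229.9 and 261 CPM in WT. Its groups were apart and it did not pass (log2 fold change -0.51 ± 0.19 (SE), adjusted p = 0.101), but it passed with the replicate number as a block (log2 fold change -0.53, adjusted p = 0.0249) and without TNFdARE replicate 1 (-0.72, adjusted p = 0.0254).

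The remaining 4 sublining genes had overlapping groups. Their log2 fold changes were Pi16 at 0.54 ± 0.28, Cd34 at 0.29 ± 0.14, Fbln1 at 0.04 ± 0.14 and Clec3b at -0.16 ± 0.21 (SE), with adjusted p between 0.166 and 0.862. Pi16 and Cd34 mark adventitial fibroblasts, and Cd34 is also made by endothelium. Pi16 passed without WT replicate 3, its highest WT library (0.90, adjusted p = 0.0207).

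Most perivascular and Notch genes fell. Of 5 genes, 3 fell, none rose and 2 did not pass, and the median log2 fold change was -0.61. Sparcl1, a secreted relative of osteonectin that is abundant around vessels, measured 197, 343 and 286 CPM in TNFdARE and 696, 692 and 782 CPM in WT. The highest TNFdARE library was below the lowest WT library by a wide margin, and Sparcl1 fell 2.57-fold (log2 fold change -1.36 ± 0.20 (SE), adjusted p = 0.00501). Notch3, the Notch receptor of mural cells and perivascular fibroblasts, measured 135, 128 and 123 CPM in TNFdARE and 235, 218 and 151 CPM in WT. WT replicate 3 came nearest to the TNFdARE libraries, and the fall was 1.53-fold (log2 fold change -0.61 ± 0.15 (SE), adjusted p = 0.0307). It was lost without any 1 library other than WT replicate 3 (adjusted p between 0.0698 and 0.104).

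Rspo3, a secreted amplifier of Wnt signals, measured 9.6, 10.2 and 12.8 CPM in TNFdARE and 14.3, 17.4 and 20.6 CPM in WT, and fell 1.57-fold (log2 fold change -0.65 ± 0.18 (SE), adjusted p = 0.036). That call was lost without TNFdARE replicate 1 or 2 or WT replicate 2 or 3 (adjusted p between 0.0772 and 0.112), and with library size only. Igfbp5, an IGF-binding protein of the matrix, was the most abundant gene of the group at 2814, 2272 and 2410 CPM in TNFdARE and 3455, 3387 and 2934 CPM in WT. Its groups were apart but it did not pass (log2 fold change -0.35 ± 0.12 (SE), adjusted p = 0.0733), while it passed in 2 of 15 other settings. Pdgfrb, the PDGF receptor of pericytes and fibroblasts, ranged from 232 to 287 CPM in TNFdARE and from 266 to 299.9 CPM in WT (log2 fold change -0.05 ± 0.10 (SE), adjusted p = 0.778).

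The 5 genes of matrix activation were split, with 1 higher, 1 lower and 3 not called and a median log2 fold change of 0.10. Postn encodes periostin, a matricellular protein of wounds and fibrosis, and measured 1013, 658 and 1518 CPM in TNFdARE and 281, 366 and 319.6 CPM in WT. All TNFdARE libraries were above WT, with replicate 2 lowest and replicate 3 highest, and Postn rose 3.37-fold (log2 fold change 1.75 ± 0.31 (SE), adjusted p = 0.0113). Wnt5a, a Wnt ligand of the non-canonical pathway, measured 16.7, 12.3 and 16.5 CPM in TNFdARE and 20.8, 22.5 and 22.9 CPM in WT. It fell 1.43-fold (log2 fold change -0.51 ± 0.14 (SE), adjusted p = 0.0345), and the call was lost without any 1 library other than TNFdARE replicate 1 (adjusted p between 0.0536 and 0.104), with limma on log2(FPKM + 1) and with all 12 libraries in 1 fit.

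Fn1 encodes fibronectin and was the most abundant member, at 14350, 11050 and 13250 CPM in TNFdARE and 12080, 10470 and 14360 CPM in WT. The groups overlapped (log2 fold change 0.10 ± 0.17 (SE), adjusted p = 0.721, 95% interval -0.30 to 0.49). Tnc encodes tenascin-C, a matrix protein of tendon and of injured tissue, and measured 736, 911 and 1163 CPM in TNFdARE and 1104, 1326 and 1210 CPM in WT, with overlap and no call (log2 fold change -0.34 ± 0.17 (SE), adjusted p = 0.191). Cthrc1, a secreted protein of collagen-producing fibroblasts, ranged from 49.4 to 109 CPM in TNFdARE and from 30.0 to 50.9 CPM in WT. TNFdARE replicate 2 lay within the WT range (log2 fold change 1.00 ± 0.35 (SE), adjusted p = 0.096), and Cthrc1 passed without that library (1.28, adjusted p = 0.0216).

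Relative to the mean of the WT libraries, the median log2 ratio of the lining genes was -2.23, -1.88 and -2.50 in the 3 TNFdARE synovium libraries. The sublining genes had medians of 0.59, 0.20 and 0.34, and the perivascular genes -0.58, -0.65 and -0.44. The medians of the general fibroblast genes (-0.01, -0.30 and -0.27) and of matrix activation (0.22, -0.15 and 0.11) were nearer to 0. TNFdARE replicate 2 thus had the smallest shift of both the lining and the sublining genes.

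**Figure D2:**
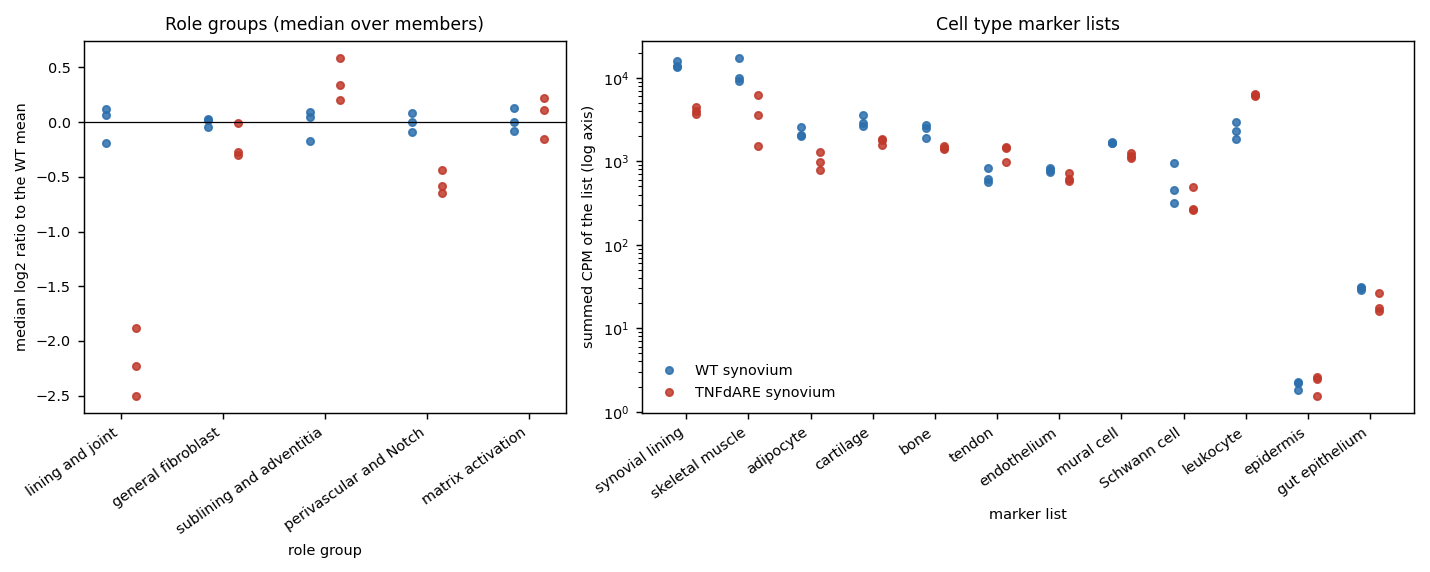
Left, the median log2 ratio to the WT mean over the genes of each role group, with 1 point per synovium library. Right, the summed CPM of each cell type marker list on a log axis. The lining medians of the TNFdARE libraries lie between -2.50 and -1.88, and the TNFdARE libraries are also lower in skeletal muscle (1546 to 6208 CPM) and higher in leukocyte markers (5994 to 6466 CPM) than WT.

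Markers of other cell types changed in the same synovium libraries. Beside the counts of markers, 13.1% of all genes tested were called higher and 10.7% lower. For 23.2% of all genes the TNFdARE libraries all lay below WT. Summed leukocyte markers were 5994 to 6466 CPM in TNFdARE and 1858 to 2969 CPM in WT, with 5 of 8 markers higher. Skeletal muscle markers summed to 1546 to 6208 CPM in TNFdARE and 9222 to 17470 CPM in WT, with 1 of 9 passing as lower and 8 of 9 with groups that did not overlap. Adipocyte markers summed to 783 to 1294 CPM beside 1988 to 2570 CPM, with 6 of 6 lower. Cartilage (1 of 7 lower; 1554 to 1875 beside 2623 to 3587 CPM) and bone (5 of 6 lower; 1392 to 1533 beside 1889 to 2732 CPM) were lower in sum too. Tendon markers were the exception among the tissues near a joint, with 2 of 4 higher and sums of 976 to 1500 beside 559.8 to 836 CPM.

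Among vessel cells, mural markers had 4 of 5 lower and 1 higher (sums of 1104 to 1273 beside 1665 to 1703 CPM), and endothelial markers 4 of 6 lower (581 to 719 beside 754 to 825 CPM). Schwann cell markers had none of 4 called and overlapping sums (262 to 486 beside 313 to 966 CPM). None of these lists had a marker at 0 in all synovium libraries of a group. Epidermal markers summed to 1.56 to 2.61 CPM in TNFdARE and 1.82 to 2.29 CPM in WT, with 3 of 5 at 0 in all TNFdARE libraries, and gut epithelial markers to 15.9 to 26.5 and 28.6 to 31.5 CPM. The part of leukocytes, fat, cartilage, bone, tendon and vessels in the fibroblast values was not tested.

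The muscle level was entered as a covariate in 1 fit of the 6 synovium libraries. Its groups did not overlap, so muscle level and genotype cannot be told apart with 3 libraries a group. In that fit 19 of the 21 calls ended: 2 members were called higher and 1 lower, with 365 and 85 genes called in all. Pdpn (log2 fold change 2.20, adjusted p = 0.00773) and Dpt (1.06, adjusted p = 0.0472) were the higher ones, and Tnc (-0.96, adjusted p = 0.0298) passed there as lower. The sizes for the lining genes were -1.59 for Clic5, -2.62 for Htra4, -1.43 for Tspan15, -1.78 for Hbegf and -2.79 for Serpinb7, with adjusted p between 0.0639 and 0.1. Among the other lost calls, the value was nearer to 0 for Coch (-3.20 to -0.85), Apod (-0.59 to -0.09), Postn (1.75 to 1.08), Notch3 (-0.61 to -0.41) and Fbn1 (1.05 to 0.87). It was farther from 0 for Rspo3 (-0.65 to -1.16), Sparcl1 (-1.36 to -1.74), Cxcl14 (-0.41 to -0.64), Thy1 (1.28 to 1.41), Mfap5 (0.78 to 0.89), Wnt5a (-0.51 to -0.61), Col14a1 (1.14 to 1.22), Lum (1.04 to 1.11) and Fap (-0.33 to -0.40). The adjusted p of these genes lay between 0.0538 and 0.829.

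In ileum the same genes gave 3 calls. Of 32 members with enough counts to test, 2 rose and 1 fell, 9.38% of those tested, beside 5.68% of all 15462 genes (4.12% higher and 1.57% lower). Htra4, Gdf5, Serpinb7 and Cthrc1 had too few counts in ileum to be tested. The median log2 fold change of the tested members was 0.12, beside -0.002 for all genes. TNFdARE replicate 2 stood apart from the other TNFdARE ileum libraries, with Tnf at 17.2 CPM beside 82.8 and 47.4 CPM and summed leukocyte markers at 1130 CPM beside 5083 and 2881 CPM. WT ileum had 306 to 407 CPM of leukocyte markers. Gut epithelial markers summed to 5121 to 7359 CPM in TNFdARE and 8052 to 8364 CPM in WT, and their part in the values was not tested.

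Dcn measured 571, 401 and 585 CPM in TNFdARE and 267, 264 and 252 CPM in WT ileum, and rose 1.99-fold with no overlap (log2 fold change 0.99 ± 0.15 (SE), adjusted p = 0.0404). Lum measured 76.1, 75.6 and 77.8 CPM in TNFdARE and 44, 51.8 and 54.6 CPM in WT ileum, with the 3 TNFdARE libraries nearly equal, and rose 1.53-fold (log2 fold change 0.61 ± 0.09 (SE), adjusted p = 0.0404). Clic5 measured 247, 315 and 295 CPM in TNFdARE and 419, 438 and 464 CPM in WT ileum, and fell 1.54-fold (log2 fold change -0.62 ± 0.11 (SE), adjusted p = 0.0404). All 3 calls ended without TNFdARE replicate 3 or any 1 WT replicate (adjusted p between 0.15 and 0.174), where the test called 0 to 2 genes in all, although between 3158 and 3550 genes had an unadjusted p under 0.05. They also ended with limma-voom and with limma on log2(FPKM + 1), and that of Clic5 with all 12 libraries in 1 fit (-0.62, adjusted p = 0.0594), while DESeq2 kept all 3. Without TNFdARE replicate 2, the library that stood apart, 15 members were called, 7 higher and 8 lower, with 4633 genes called in all.

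Members near the threshold in ileum were Pdpn at 0.65 ± 0.15 (adjusted p = 0.0543), Pdgfrb at 0.29 ± 0.07 (0.0618), Hbegf at -0.84 ± 0.24 (0.0793) and Fbln1 at -1.04 ± 0.31 (0.0918), each with groups that did not overlap. Non-overlapping groups were seen for 7 members that were higher and 5 that were lower, 12 of the 32 tested, beside 37.3% of all tested genes (18.9% higher and 18.4% lower). None of the 12 sublining genes and none of the 5 perivascular genes passed in edgeR, with medians of 0.13 and 0.14. At an unadjusted p under 0.05 there were 3 of the former and 1 of the latter, and DESeq2 called 1 of each, Fbln1 and Pdgfrb. The median of the 4 tested lining genes was -0.54, and that of the 4 tested matrix activation genes was -0.26. Lum and Clic5 were the 2 members called in both tissues, each in the same direction. Their ileum calls ended without TNFdARE replicate 3 or any 1 WT replicate. The share of all genes called in both tissues was not computed, so no shared response is read from these 2.

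**Figure D3:**
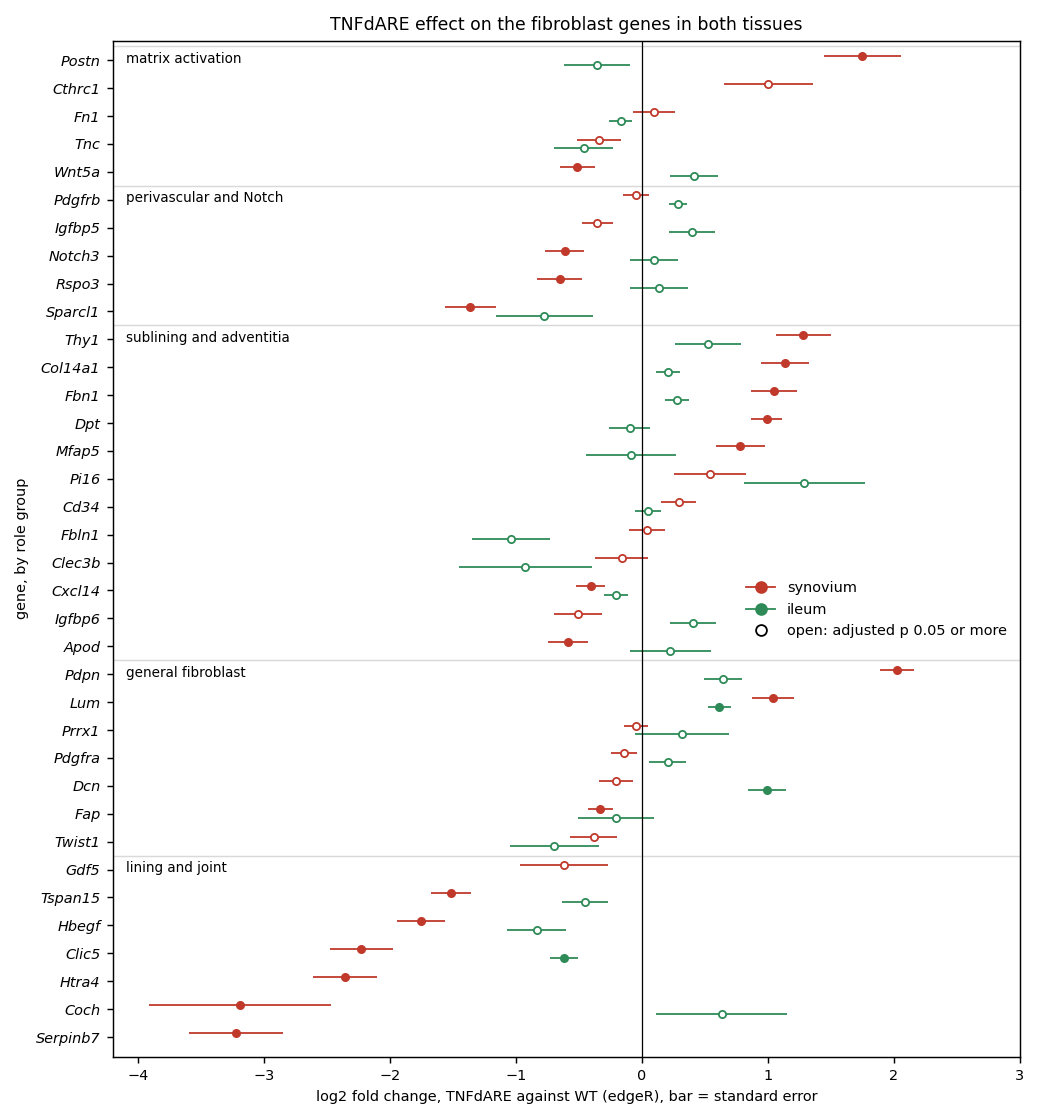
Log2 fold change of TNFdARE against WT for each gene, from edgeR, in synovium (red) and ileum (green), with bars of 1 standard error. Filled points passed an adjusted p of 0.05, and a gene without a green point was not tested in ileum. Lining genes lie left of 0 in synovium, down to -3.23 for Serpinb7, and the filled ileum points are those of Lum, Dcn and Clic5.

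The difference between the tissues was tested directly, as the synovium effect minus the ileum effect over all 12 libraries. It passed for 10 of 36 members (27.8%), beside 12.1% of all 16964 genes. Htra4, Gdf5, Serpinb7 and Cthrc1, not tested in ileum alone, entered this fit only through their synovium counts. Of them Serpinb7 is among the 10, and its difference mainly restates its fall in synovium. The difference was positive for 4 members, beside 5.28% of genes, and negative for 6, beside 6.80%. The positive ones were Postn (2.08 ± 0.43, adjusted p = 0.0158), Pdpn (1.36 ± 0.20, adjusted p = 0.0037), Dpt (1.06 ± 0.22, adjusted p = 0.0146) and Col14a1 (0.91 ± 0.23, adjusted p = 0.0296). In ileum these 4 genes had log2 fold changes of -0.36, 0.65, -0.10 and 0.21, none of them past the threshold. Postn in ileum measured 96.8, 167 and 88.3 CPM in TNFdARE and 139, 175 and 138 CPM in WT, and Pdpn measured 14.1, 12.3 and 16.2 CPM in TNFdARE and 10.2, 8.62 and 8.45 CPM in WT. For Postn the ileum groups overlapped, and for Pdpn they did not. Dpt measured 74.1, 112 and 78.2 CPM in TNFdARE and 98.1, 97.6 and 88 CPM in WT ileum and Col14a1 measured 40.9, 49.2 and 47.4 CPM in TNFdARE and 37.6, 41.3 and 40.5 CPM in WT, both with overlap.

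The negative ones were Clic5 (-1.64 ± 0.29, adjusted p = 0.00745), Tspan15 (-1.09 ± 0.26, adjusted p = 0.0258), Coch (-3.86 ± 1.03, adjusted p = 0.0378), Serpinb7 (-4.11 ± 1.18, adjusted p = 0.0458), Dcn (-1.23 ± 0.22, adjusted p = 0.00848) and Wnt5a (-0.95 ± 0.25, adjusted p = 0.0351). Clic5 fell in both tissues, and further in synovium. Tspan15 in ileum measured 87.7, 145 and 112 CPM in TNFdARE and 149.6, 173 and 152 CPM in WT, lower in each TNFdARE library without passing. Dcn rose in ileum while its level in synovium did not pass. Wnt5a fell in synovium, and in ileum it measured 21.7, 36.8 and 31.4 CPM in TNFdARE and 21.7, 22.1 and 23.8 CPM in WT with overlapping groups (log2 fold change 0.41 ± 0.19 (SE), adjusted p = 0.194). Coch and Serpinb7 rest on few ileum counts: Coch lay between 0.633 and 2.03 CPM there, and Serpinb7 had 4, 0 and 2 counts in TNFdARE and 0, 2 and 1 in WT, so that its fitted difference depends on the prior count.

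Clic5, Dcn, Dpt, Pdpn and Postn kept this call in each of 19 other settings. The other 5 were lost in some of them. Limma-voom ended the calls of Coch, Serpinb7, Wnt5a and Col14a1 (0.88, adjusted p = 0.051), no filter on low counts those of Coch and Serpinb7, and RLE size factors and limma on log2(FPKM + 1) that of Wnt5a. Where these settings, or for Serpinb7 also the replicate block, ended the call, the adjusted p was 0.0878 to 0.251 for Coch, 0.054 to 0.102 for Serpinb7 and 0.0502 to 0.132 for Wnt5a. The other losses came from leaving out single libraries. Coch was lost in 8 of 12 such fits (adjusted p between 0.0504 and 0.133), all but those without ileum TNFdARE replicate 2, synovium TNFdARE replicate 2, synovium WT replicate 1 or synovium WT replicate 2. Tspan15 was lost in 8 of 12 (between 0.0545 and 0.0851), all but those without ileum TNFdARE replicate 1 or 2, synovium TNFdARE replicate 2 or synovium WT replicate 2. Serpinb7 was lost in 10 of 12 (between 0.053 and 0.226), all but those without replicate 2 of TNFdARE in either tissue. Wnt5a was lost in 10 of 12 (between 0.0594 and 0.105), all but those without replicate 1 of TNFdARE in either tissue. Col14a1 was lost in 5 of 12 (between 0.0519 and 0.0644), those without replicate 3 of any of the 4 groups or without ileum WT replicate 2. With the replicate number as a block, Serpinb7 no longer passed (-4.04, adjusted p = 0.102), while Fbn1 (0.73, adjusted p = 0.0115), Mfap5 (0.83, 0.0375), Igfbp6 (-0.96, 0.0246) and Notch3 (-0.71, 0.0326) did.

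In healthy mice nearly all members were more abundant in synovium. The set was chosen as genes of synovial fibroblasts, so this excess was largely fixed by the choice. Htra4, Gdf5, Serpinb7 and Cthrc1 entered this comparison only through their synovium counts, and all are among those called higher. Between WT synovium and WT ileum, 33 of 36 were higher and 1 was lower, 94.4% called beside 75.3% of 16287 genes (38.3% higher and 37% lower). Their libraries did not overlap for the same counts, 33 higher and 1 lower, beside 79.5% of genes (40.6% higher and 38.9% lower). The members had a median log2 difference of 3.33 beside 0.006 for all genes. The 1 lower in synovium was Tspan15 (log2 fold change -1.08 ± 0.08 (SE), adjusted p = 6e-06), and Clic5 (log2 fold change 0.21 ± 0.12 (SE), adjusted p = 0.147) and Wnt5a (log2 fold change -0.04 ± 0.10 (SE), adjusted p = 0.704) did not pass. The transcription factor Prrx1 was 158-fold higher in synovium, Apod 95.5-fold, Pi16 93.9-fold, Igfbp6 54.2-fold and Fn1 51-fold. Htra4 had 4030, 4559 and 5405 counts in the WT synovium libraries and 6, 9 and 4 in the WT ileum libraries. Serpinb7 had 0, 2 and 1 counts in WT ileum, Gdf5 0, 2 and 1 and Cthrc1 2, 0 and 0, at or under the floor of 3 counts (0.185 to 0.210 CPM before scaling). The smallest called excess was that of Fbln1 at 1.3-fold, which did not pass when all 12 libraries were fitted together (log2 difference 0.39, adjusted p = 0.193).

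**Figure D4:**
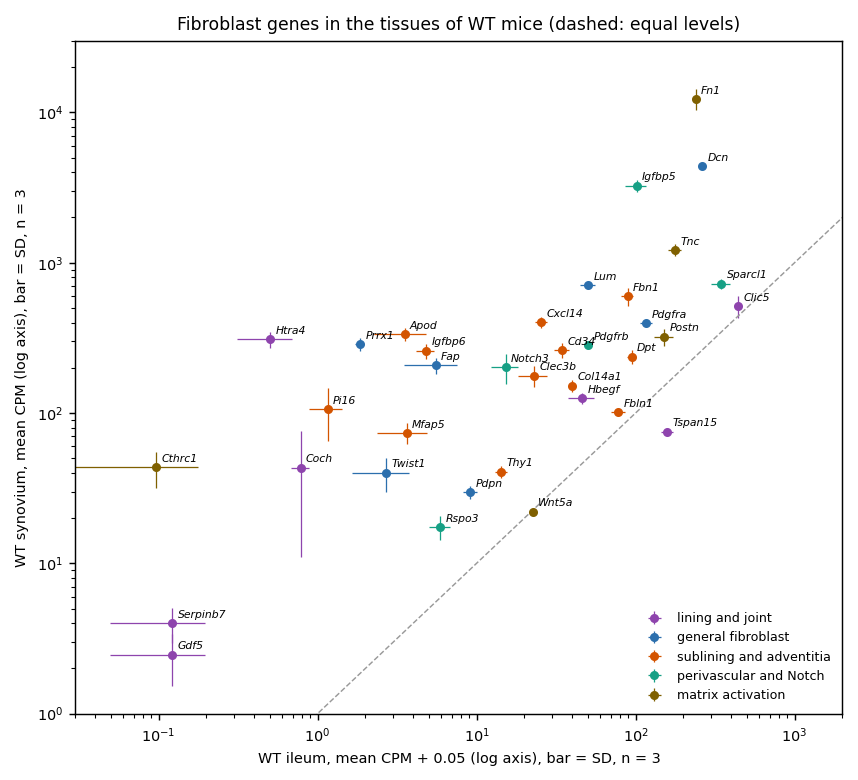
Mean CPM of each gene in WT ileum (x axis, with 0.05 added) and WT synovium (y axis), both on log axes, with bars of 1 SD over 3 libraries and colours by role group. The dashed line marks equal levels. Tspan15 lies below it, Clic5 and Wnt5a lie near it, and Fn1, at 12080, 10470 and 14360 CPM in WT synovium, is the most abundant.

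Per kilobase of exon, the order of levels in WT synovium began with Fn1 at 1053 ± 167 CPM per kb (SD, n = 3), Dcn at 755 ± 39.6, Igfbp5 at 543 ± 47.2, Lum at 289.8 ± 12.7 and Sparcl1 at 246 ± 17.3. Igfbp6 at 234 ± 26.7 and Cxcl14 at 220.1 ± 18.0 had ranges of 1 SD that overlapped that of Sparcl1 and each other. Lining genes were lower in this order, led by Htra4 at 129 ± 15.97 and Clic5 at 58.5 ± 9.74, and Serpinb7 (2.03 ± 0.531) and Gdf5 (1.06 ± 0.402) were last. In TNFdARE synovium Clic5 moved from rank 13 to rank 29 of 36 and Htra4 from 12 to 24, while Pdpn moved from 29 to 14 and Postn from 17 to 9. In WT ileum the order was led by Sparcl1 (118 ± 15.9 CPM per kb), Dpt (54.9 ± 3.31), Clic5 (50.1 ± 2.54) and Dcn (44.7 ± 1.33). Dcn came first in TNFdARE ileum, at 88.9 ± 17.6, followed by Sparcl1 at 68.8 ± 35.3 with overlapping spread.

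Other genes of the same pathways were counted in lists. Beside these counts, 13.1% of all genes tested rose and 10.7% fell in synovium, and 4.12% rose and 1.57% fell in ileum. The lists were not tested against these shares. With limma-voom, with limma on log2(FPKM + 1) or without any 1 WT ileum library, 0 genes were called in ileum. The ileum calls given for these lists therefore ended in those settings. Of 12 further Notch pathway genes, 2 rose and 4 fell in synovium and none passed in ileum (edgeR, 3 at an unadjusted p under 0.05). Rbpj, the DNA-binding partner of Notch, rose (log2 fold change 0.80 ± 0.11 (SE), adjusted p = 0.00344), and Heyl, a Notch target of vessel walls, fell (log2 fold change -0.73 ± 0.17 (SE), adjusted p = 0.0225). Of 4 PDGF ligands, the growth factors of Pdgfra and Pdgfrb, 2 rose and 1 fell in synovium. Pdgfc rose in synovium (log2 fold change 0.46 ± 0.07 (SE), adjusted p = 0.00418) and fell in ileum (log2 fold change -0.92 ± 0.18 (SE), adjusted p = 0.0445). Pdgfb rose in both (log2 fold change 0.48 ± 0.08 (SE), adjusted p = 0.00761 in synovium and log2 fold change 0.88 ± 0.18 (SE), adjusted p = 0.0459 in ileum).

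Of 18 collagens, proteoglycans and crosslinking enzymes, 10 rose and none fell in synovium (median 0.72), and 5 rose and none fell in ileum. Col6a3, a chain of the beaded collagen VI, rose in synovium (log2 fold change 1.26 ± 0.15 (SE), adjusted p = 0.00221), as did the lysyl oxidase Loxl2 (log2 fold change 0.92 ± 0.12 (SE), adjusted p = 0.00292). Of 18 genes of fibroblast inflammatory output, 11 rose and none fell in synovium (median 2.06), and 9 of 16 tested rose in ileum. The complement component C3 rose (log2 fold change 3.35 ± 0.20 (SE), adjusted p = 0.000216), and so did the adhesion molecule Icam1 (log2 fold change 2.46 ± 0.15 (SE), adjusted p = 0.000246). Leukocytes and other cells also make these transcripts. Of 23 Wnt and R-spondin genes, 2 rose and 8 fell in synovium, and none of 17 tested passed in ileum (edgeR, 3 at an unadjusted p under 0.05). The ligands Wnt4 (log2 fold change -1.40 ± 0.17 (SE), adjusted p = 0.002) and Wnt10b (log2 fold change -0.93 ± 0.14 (SE), adjusted p = 0.00504) fell in synovium. Of 7 genes of the IGF axis, 2 rose and 1 fell in synovium, with Igf2 lower (2-fold, adjusted p = 0.00104) and Igfbp7, an abundant vessel-associated binding protein, higher (log2 fold change 0.60 ± 0.12 (SE), adjusted p = 0.0135). In ileum 1 of the 7 rose, and the ileum calls of all these lists ended in the settings named above.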

How the data were processed

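The set was analysed in 12 bulk libraries of poly-A RNA (TruSeq Stranded mRNA, single reads, per the labels' protocols). Reads were handled with cutadapt 1.15 and Bowtie2 2.3.3.1 on GRCm38, per the submitters' processing notes; counting tool, strandedness and gene models were not given in the sources used here, so reads of overlapping antisense genes may not be separated. The authors deposited raw counts for 46603 Ensembl genes, 19236 of them 0 in all libraries. They also deposited FPKM for 17046 genes, with an adjustment that is not described: no FPKM was 0, yet for 5756 of them the count was 0, and 265 ileum and 328 synovium genes held a single value in all 6 libraries. The FPKM served as an alternative, on log2(FPKM + 1).

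Symbols and positions came from GENCODE M21 (98.7% of identifiers matched). Tissues were fitted separately (R 4.3.3, edgeR 4.0.16): filterByExpr, TMM, robust quasi-likelihood F test, two-sided, Benjamini-Hochberg adjustment over all genes tested, threshold 0.05. The difference of effects was the interaction of 4 groups over 12 libraries, and the WT tissues were compared over 6. Every adjusted p is from edgeR unless limma 3.58.1 or DESeq2 1.42.0 is named. SE is the size of the log2 fold change divided by the square root of F. The scripts were tested on simulated data.

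A library's total of 14267834 to 16224402 counts makes 1 count worth 0.0616 to 0.0701 CPM. Floors cover counting error only: without molecular identifiers, reads may be copies of 1 molecule. Pairing by replicate number within a tissue was checked: deviations of same-numbered TNFdARE and WT libraries correlated at 0.485, 0.322 and 0.168 in synovium and 0.233, 0.254 and 0.168 in ileum over 10818 genes. Of the 6 TNFdARE libraries 5 correlated best with their own number, and synovium TNFdARE replicate 3 correlated more with WT replicate 2 (0.182). Since all same-numbered pairs exceeded 0.1, the replicate number was entered as a block in an alternative fit of each comparison. The main fits held no term for the replicate number and treated the libraries as unpaired. Replicate 3 was the library with the female transcript in each group, so the number and that transcript go together. The labels call the replicates biological, without saying what they share. The members, role groups, lists and tests were chosen with earlier results of these data known. Values in every library are given for members called in synovium, ileum or the difference, for the 2 most abundant of each role group, and for members whose synovium groups do not overlap. Of each other list, the 2 called genes with the smallest adjusted p in synovium are named. Promoter sequences are from RefSeq.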

Additional observations from a re-analysis of the deposited data

Results flagged for a closer look

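The TNFdARE effect differed between the tissues in 10 members, where the test of the difference itself passed (edgeR). As synovium minus ileum on the log2 scale, it was 2.08 for Postn, 1.36 for Pdpn, 1.06 for Dpt and 0.91 for Col14a1, whose change was more positive in synovium. It was -1.64 for Clic5, -1.09 for Tspan15, -3.86 for Coch, -4.11 for Serpinb7, -1.23 for Dcn and -0.95 for Wnt5a. The calls of Clic5, Dcn, Dpt, Pdpn and Postn were kept in all 19 other settings. Serpinb7 had too few counts in ileum to be tested there, and its call was lost in 13 of 19 settings. Coch, also with few ileum counts, lost its call in 10, Wnt5a in 13, Tspan15 in 8 and Col14a1 in 6. Igfbp6 is given for another reason: all its TNFdARE libraries lay below WT in synovium and above WT in ileum. The margins were narrow, at 229.5 CPM in TNFdARE replicate 1 beside 229.9 CPM in WT replicate 2 of synovium. In ileum they were 5.483 CPM in TNFdARE replicate 3 beside 5.404 CPM in WT replicate 2. Igfbp6 passed in neither tissue by itself (adjusted p = 0.101 in synovium and 0.189 in ileum, edgeR). Its difference of -0.94 missed the threshold (adjusted p = 0.0511, edgeR) and passed with the replicate number as a block (adjusted p = 0.0246).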

How the results depend on the processing

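Each of the 21 synovium calls kept its direction in all 15 other settings, as did the 3 ileum and 10 difference calls in theirs. Dpt and Pdpn passed in all synovium settings, and 11 others (Clic5, Htra4, Tspan15, Hbegf, Serpinb7, Lum, Thy1, Col14a1, Fbn1, Sparcl1 and Postn) in all but the muscle covariate, with 2 members higher and 1 lower and 365 and 85 genes in all. Leaving out single synovium libraries gave 7 to 9 members higher and 6 to 9 lower, and 1265 to 1670 genes higher and 863 to 1277 lower, beside 2037 and 1676. DESeq2 called 9 members higher and 15 lower in synovium (2174 and 2085 genes). Members without a main synovium call passed in some of the 15 other settings: Igfbp6 in 4, Cthrc1 in 3, Igfbp5 in 2 and Pi16, Tnc and Twist1 in 1 each.

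In ileum the scaling mattered. With library size only, 4 members were higher, and the split of all genes was 1218 higher and 161 lower, beside 637 and 242 with TMM; the median log2 fold change of all genes was 0.105 with it and -0.002 with TMM. DESeq2 called 4 members higher and 3 lower (1680 and 1035 genes). All 12 libraries in 1 fit gave 2 members lower, Hbegf and Fbln1, without Clic5 (adjusted p = 0.0594), and 1827 and 895 genes. Limma-voom called 0 members and 0 genes, with 10 members and 4584 genes at an unadjusted p under 0.05, and limma on log2(FPKM + 1) called 0 and 0, with 9 and 4982. Leaving out single ileum libraries gave 0 to 7 members higher, 0 to 8 lower, and 0 to 2609 genes higher and 0 to 2024 lower.

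For the difference between tissues, DESeq2 gave 1612 genes higher, limma-voom 3 members lower and 746 genes lower, and limma on log2(FPKM + 1) 10 members lower and 1353 genes higher. Leaving out single libraries gave 3 to 7 members higher, 2 to 7 lower, and 472 to 1814 genes higher and 484 to 1692 lower. The replicate block gave 14 members lower in synovium (Igfbp6 added) and 6 higher and 7 lower for the difference; beyond the calls named with the results it changed none. The cause of these shifts was not tested.

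Between the WT tissues the median of all genes was 0.164 with library size only and 0.006 with TMM. No called value changed sign. With limma on log2(FPKM + 1) the values in synovium that changed sign were 0.00 for Dcn. With the muscle covariate the values in synovium that changed sign were 0.03 for Pdgfra, 0.12 for Dcn, 0.05 for Prrx1, 0.56 for Clec3b, 0.12 for Igfbp6. Leaving out single libraries in synovium moved Fbln1 from -0.10 to 0.19, Prrx1 from -0.10 to 0.03, Pdgfrb from -0.10 to 0.05, Clec3b from -0.35 to 0.03, Fn1 from -0.01 to 0.23. With library size only the values in ileum that changed sign were 0.01 for Dpt, 0.02 for Mfap5. With limma on log2(FPKM + 1) the values in ileum that changed sign were -0.02 for Prrx1, -0.02 for Apod, -0.01 for Notch3, -0.07 for Rspo3, 0.01 for Fn1. Leaving out single libraries in ileum moved Coch from -0.12 to 0.91, Prrx1 from -0.17 to 0.55, Dpt from -0.30 to 0.02, Rspo3 from -0.02 to 0.31, Notch3 from -0.05 to 0.22. It moved Mfap5 from -0.31 to 0.20, Fap from -0.38 to 0.14, Cd34 from 0.00 to 0.14, Apod from -0.05 to 0.44. With limma on log2(FPKM + 1) the values for the difference that changed sign were 0.12 for Pi16, 0.90 for Cthrc1. Leaving out single libraries for the difference moved Prrx1 from -0.56 to 0.17, Tnc from -0.09 to 0.45, Fap from -0.43 to 0.12. With library size only the values between the WT tissues that changed sign were 0.12 for Wnt5a. Leaving out single libraries between the WT tissues moved Wnt5a from -0.08 to 0.00. Depth limits the lining genes that are near 0 in ileum, where 3 counts are 0.185 to 0.210 CPM.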

Other observations

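The lining markers outside the set did not move alike in the 2 tissues, an observation made after their values were seen. Of the 3 markers, Prg4 had too few counts in ileum to be tested there. Col22a1, a collagen of tissue junctions, fell in synovium and measured 9.28, 4.37 and 8.65 CPM in TNFdARE and 1.25, 1.39 and 0.774 CPM in WT ileum, where it rose 6.53-fold (log2 fold change 2.71 ± 0.38 (SE), adjusted p = 0.0389, edgeR). The difference of the effects was -3.78 ± 0.44 (SE, adjusted p = 0.00143). The ileum call of Col22a1 ended with limma-voom and without any 1 WT ileum library, where 0 genes were called. Cd55, a regulator that protects cells from complement, measured 79.9, 99.3 and 85.1 CPM in TNFdARE and 62.6, 59.2 and 69.5 CPM in WT ileum without passing (adjusted p = 0.0515), and its difference was -1.18 ± 0.18 (SE, adjusted p = 0.00447). In ileum Cd55 is also made by other cells than fibroblasts.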
